A study of Capra hircus with 10 samples.

Results

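Chemokines and chemokine receptors were examined here in the ovaries of Anhui white goats. The members were the protein-coding genes of the deposited transcript table whose symbols begin with CCL, CXCL, CCR, CXCR or ACKR and a number, together with PPBP, CX3CL1, CX3CR1 and XCR1. This rule, which uses names and no measured value, gave 43 of the 20587 protein-coding gene symbols. They comprised 13 CC ligands, 11 CXC and CX3C ligands, 16 receptors and 3 atypical receptors. RNA came from 5 whole ovaries in the luteal phase, when a corpus luteum is present, and 5 whole ovaries in the follicular phase, when follicles grow toward ovulation. The ovaries were collected at a slaughterhouse, received no treatment named in the labels, and have no stated age. The labels do not say whether each ovary came from a different goat, so the p-values measure the spread between these ovaries. Values are FPKM (fragments scaled by transcript length and by the mapped fragments of the library) as the authors deposited them, summed per gene symbol.

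Chemokines are small secreted proteins that form gradients and direct the movement of cells that carry the matching receptor, a protein with a bundle of membrane-spanning helices coupled to G proteins. CC, CXC and CX3C name the spacing of the first conserved cysteines of the ligand. Atypical receptors bind chemokines without the usual G protein signal and can take them up and remove them. In the ovary, leukocytes enter around ovulation, during the building of the corpus luteum and during its regression, and chemokines of granulosa, theca, luteal, endothelial and immune cells are part of that traffic.

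Differences were taken on the scale of log2(FPKM + 0.1), the luteal phase less the follicular phase, with limma's two-sided test. The Benjamini-Hochberg adjustment covered the 15359 gene symbols that reached 0.1 FPKM in 5 or more of the 10 ovaries. SE is the standard error of a log2 fold change. A gene was called at an adjusted p under 0.05, and log2 fold changes on this scale understate the change of low genes. The median log2 fold change over the genes tested was -0.14, and it was -0.05 after each ovary was shifted to a common median. Depth per ovary is unknown, because the table holds no read counts. The 6 measured corpus luteum markers, STAR and CYP11A1 among them, were called higher in the luteal phase, with a summed FPKM of 6232 to 8444 against 160 to 211. In whole ovaries, fewer cells of a type and less RNA per cell cannot be told apart.

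Of the 43 members, 38 could be tested, and 16 of the 38 were called (42.1%), against 43.7% of the genes tested, so the share of members that differed was near the background. The division by phase was 12 members higher in the luteal phase (31.6%, where 15.9% of the genes tested were) and 4 higher in the follicular phase (10.5%, where 27.8% were). That background moved with the scaling. With ovaries shifted to a common median, 18.9% of the genes tested were called toward the luteal phase and 19.9% toward the follicular phase, beside 14 and 3 members, and on the TPM scale 18.8% and 17%, beside 13 and 3 members. The median log2 fold change of the 38 members was 0.22. In 9 members every luteal phase ovary lay above every follicular phase ovary, a pattern found in 11.2% of the genes tested, and 2 members showed the opposite, against 17.2% (28.4% in either direction). Leaving out 1 ovary at a time gave 10 to 13 members higher in the luteal phase and 3 to 6 higher in the follicular phase. Those that rose in the luteal phase included the ligands CXCL14, CCL28, CXCL11, CCL21, CXCL10, CCL26 and CXCL16, the receptors CXCR2, CX3CR1 and CCR6, and the atypical receptor ACKR4. PPBP, CXCR4, CCL25 and CCL27 were higher in the follicular phase.

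**Figure D1:**
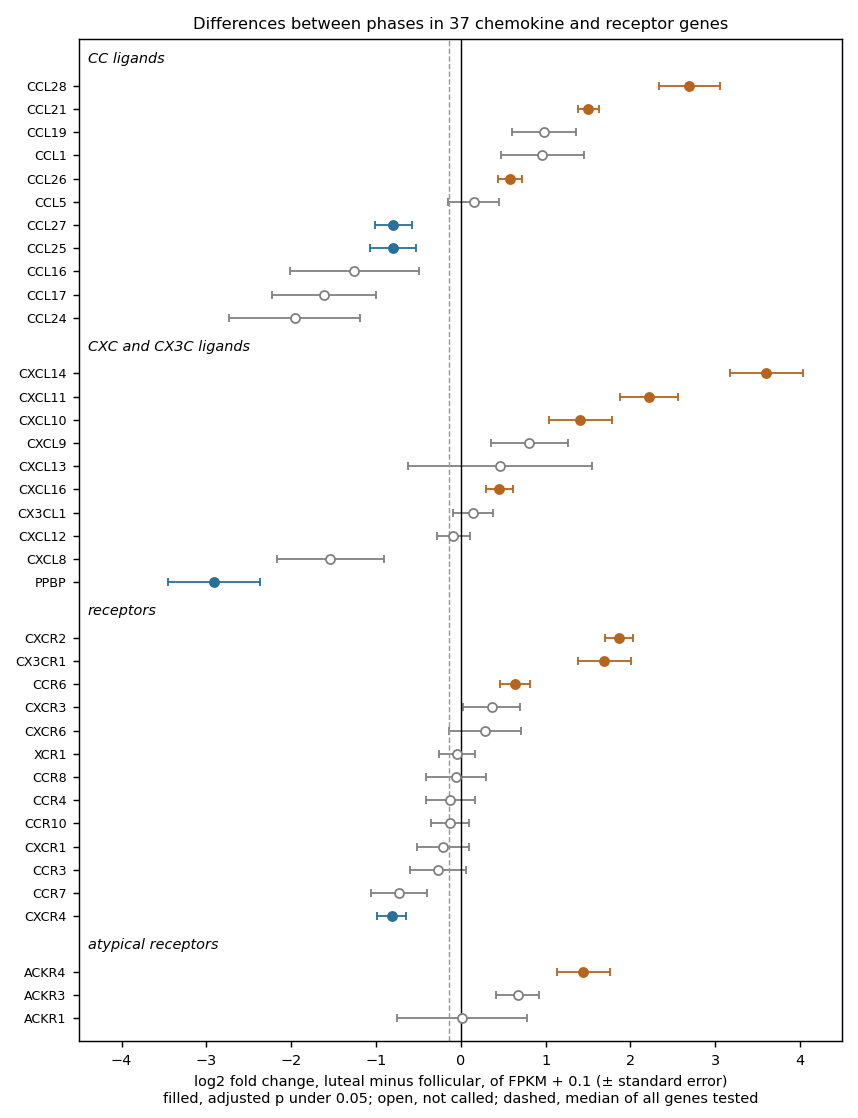
Log2 fold change (luteal minus follicular, of FPKM + 0.1) of 37 members that passed the filter, with limma's SE as the bar, grouped by family. Filled points are the 15 members drawn with an adjusted p under 0.05, 11 to the right of 0 and 4 to the left, and the dashed line is the median of the genes tested (-0.14).

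Summed over the 24 ligands, FPKM was 596, 354, 366, 411 and 374 in luteal phase replicates 1 to 5 and 201, 211, 199, 211 and 212 in follicular phase replicates 1 to 5. The luteal phase ovaries thus held the more chemokine ligand RNA, with no overlap, and luteal phase replicate 1 held the most. CCL21, CXCL10 and CXCL12 together made up 71.5% to 78.7% of this sum in luteal phase ovaries, against 62.0% to 72.4% in follicular phase ovaries. CXCL12 alone was 7.11% to 18.5% of the sum in luteal phase ovaries, against 19.0% to 26.5%, although its own level differed little. FPKM is scaled by transcript length, so these levels can be set beside each other.

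**Figure D2:**
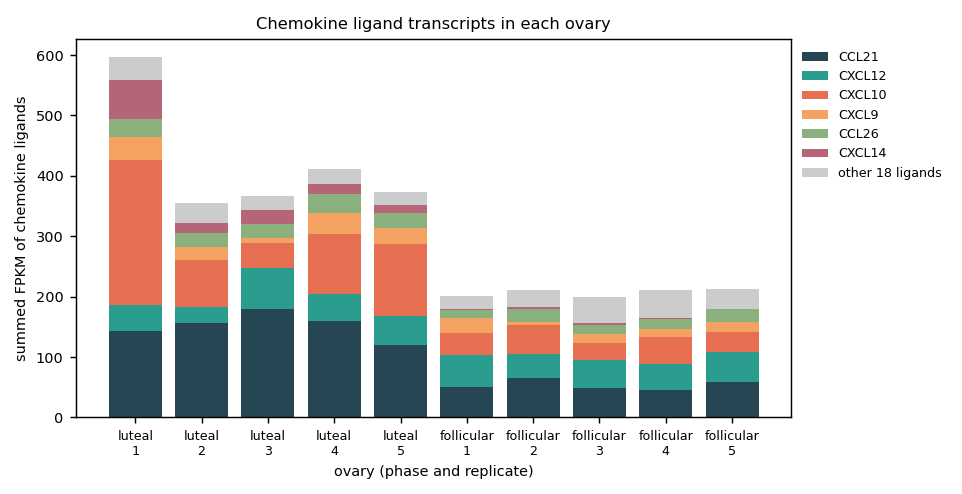
Summed FPKM of the 24 chemokine ligands in each ovary, divided into the 6 ligands CCL21, CXCL12, CXCL10, CXCL9, CCL26 and CXCL14 and the other 18. The 5 luteal phase ovaries reach 354 to 596 and the 5 follicular phase ovaries 199 to 212, and the bands of CCL21 and CXCL10 are the widest in most luteal phase ovaries.

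Among the CC ligands, 11 of 13 passed the filter, 3 were called toward the luteal phase (27.3%) and 2 toward the follicular phase (18.2%), with a median log2 fold change of 0.15. The 45.5% called was near the 43.7% of the genes tested (15.9% luteal and 27.8% follicular). CCL21 (gene 102175293), which lymphatic endothelium displays to draw CCR7-bearing dendritic cells and T cells, was the most abundant member of the 43. Its FPKM was 143, 156, 180, 159 and 120 in luteal phase replicates 1 to 5 and 50.5, 65.0, 48.5, 44.9 and 58.7 in follicular phase replicates 1 to 5. The lowest luteal phase ovary lay well above the highest follicular phase ovary, with means of 152 ± 22.0 and 53.5 ± 8.17 (SD, n = 5 each) and a log2 fold change of 1.50 (SE 0.12, limma adjusted p = 6.47e-06). CCL19, the other ligand of CCR7 and the neighbouring gene of CCL21, was far lower, at 0.369 to 0.757 in luteal phase ovaries against 0.0334 to 0.572. The log2 fold change of CCL19 was 0.98 (SE 0.38), with an adjusted p of 0.0544 that missed the threshold. CCL19 passed it without follicular phase replicate 2 (1.11, adjusted p = 0.0429), without follicular phase replicate 5 (1.25, adjusted p = 0.0132), with ovaries shifted to a common median (1.06, adjusted p = 0.0395) and with quantile normalized values (1.14, adjusted p = 0.0262). In the other 8 fits without 1 ovary CCL19 was not called, with an adjusted p of up to 0.109. Markers of lymphatic endothelium moved with CCL21. Of its 4 listed markers, LYVE1, PDPN and FLT4 were called higher in the luteal phase, where 15.9% of the genes tested were, and PROX1 was not called. The summed FPKM of the 4 was 97.6 to 138 against 56.4 to 63.2. The part of this cell type in the CCL21 difference was not tested.

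CCL28 (gene 102176270), an epithelial chemokine that is a ligand of CCR10 and CCR3, was low in both phases. Its FPKM was 2.04, 1.89, 0.947, 1.59 and 0.741 in luteal phase replicates 1 to 5 against 0.248, 0.255, 0.0472, 0.124 and 0.0367 in the follicular phase replicates. The ranges were apart, and its log2 fold change of 2.70 (SE 0.36, adjusted p = 0.000185) was the second highest of the 38 members tested. CCL26 (gene 102173357), a ligand of CCR3 known for drawing eosinophils, was at 29.7, 24.5, 23.5, 31.8 and 23.8 in the luteal phase and at 13.7, 22.1, 16.2, 16.2 and 21.5 in the follicular phase. The gap between the phases was narrow but free of overlap, with a log2 fold change of 0.58 (SE 0.14, adjusted p = 0.00713). Without both follicular phase replicates 3 and 4, an alternative chosen after the values were seen, it was 0.50 with an adjusted p of 0.0528.

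CCL27 (gene 102174569), a skin-associated ligand of CCR10, and CCL25 (gene 108633225), the ligand of CCR9 in thymus and gut, were the CC ligands higher in the follicular phase. CCL27 was at 0.650, 0.367, 0.565, 0.328 and 0.415 in luteal phase replicates 1 to 5 and at 1.04, 0.786, 0.885, 0.570 and 1.12 in follicular phase replicates 1 to 5. The ranges overlapped in 1 follicular phase ovary, replicate 4, and the log2 fold change was -0.80 (SE 0.22, adjusted p = 0.0131). CCL25 summed over its 6 transcripts to 0.911, 0.543, 0.528, 0.496 and 0.685 in the luteal phase and to 1.42, 2.01, 0.616, 1.05 and 1.07 in the follicular phase, with a log2 fold change of -0.80 (SE 0.27, adjusted p = 0.0328). Its call was the least stable of the follicular phase calls. It was lost with ovaries shifted to a common median (-0.72, adjusted p = 0.0555), with quantile normalized values (-0.71, adjusted p = 0.0677), on the TPM scale (-0.75, adjusted p = 0.0603) and in 6 of the 10 fits without 1 ovary, those without luteal phase replicate 2, 3, 4 or 5 or follicular phase replicate 1 or 2, where the adjusted p reached 0.0757.

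The other 6 CC ligands that passed the filter, CCL19 among them, were not called. CCL24, the neighbour of CCL26 and likewise a ligand of CCR3, stood at 2.31, 0.320, 0.242, 0.556 and 0.631 in the luteal phase and at 1.77, 0.762, 9.51, 9.71 and 0.863 in the follicular phase. Follicular phase replicates 3 and 4 were thus high and the other ovaries low, and the log2 fold change of -1.96 had an SE of 0.77 (adjusted p = 0.0595). It passed the threshold without luteal phase replicate 1 (-2.40, adjusted p = 0.0268), follicular phase replicate 2 (-2.37, adjusted p = 0.0287) or follicular phase replicate 5 (-2.33, adjusted p = 0.0371). Without follicular phase replicate 3 or 4 alone its adjusted p was 0.135 and 0.134, and without both of these high ovaries it was -0.73 (adjusted p = 0.350). CCL17, a ligand of CCR4, ran from a listed 0 to 1.35 in luteal phase ovaries, against 0.592 to 2.93 (log2 fold change -1.61, SE 0.61, adjusted p = 0.0519). It was called without luteal phase replicate 3 (-2.05, adjusted p = 0.0129) or follicular phase replicate 3 (-1.84, adjusted p = 0.0450), and not in the other 8 fits without 1 ovary (adjusted p of up to 0.116). CCL16 was at 2.25, 3.42 and 1.85 in luteal phase replicates 1 to 3 but at 0.0597 and 0.184 in replicates 4 and 5, while the follicular phase ovaries spanned 1.45 to 2.49. Its adjusted p was 0.201 over the 10 ovaries and 0.0219 without both luteal phase replicates 1 and 2 (log2 fold change -2.33), again an alternative chosen after the values were seen. Without luteal phase replicate 4 alone, the log2 fold change was -0.62 with an adjusted p of 0.449. CCL5, a chemokine of T cells and natural killer cells, was at 1.19 to 3.83 and 1.32 to 2.61 (log2 fold change 0.15, SE 0.30, adjusted p = 0.697). CCL1, the ligand of CCR8, was at 0.189 to 1.33 and 0.0645 to 0.486 (log2 fold change 0.96, SE 0.49, adjusted p = 0.131), and it was called without luteal phase replicate 2 (1.32, adjusted p = 0.0335). In the other 9 fits without 1 ovary CCL1 was not called, and without follicular phase replicate 2 it was 0.64 (adjusted p = 0.266).

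**Figure D3:**
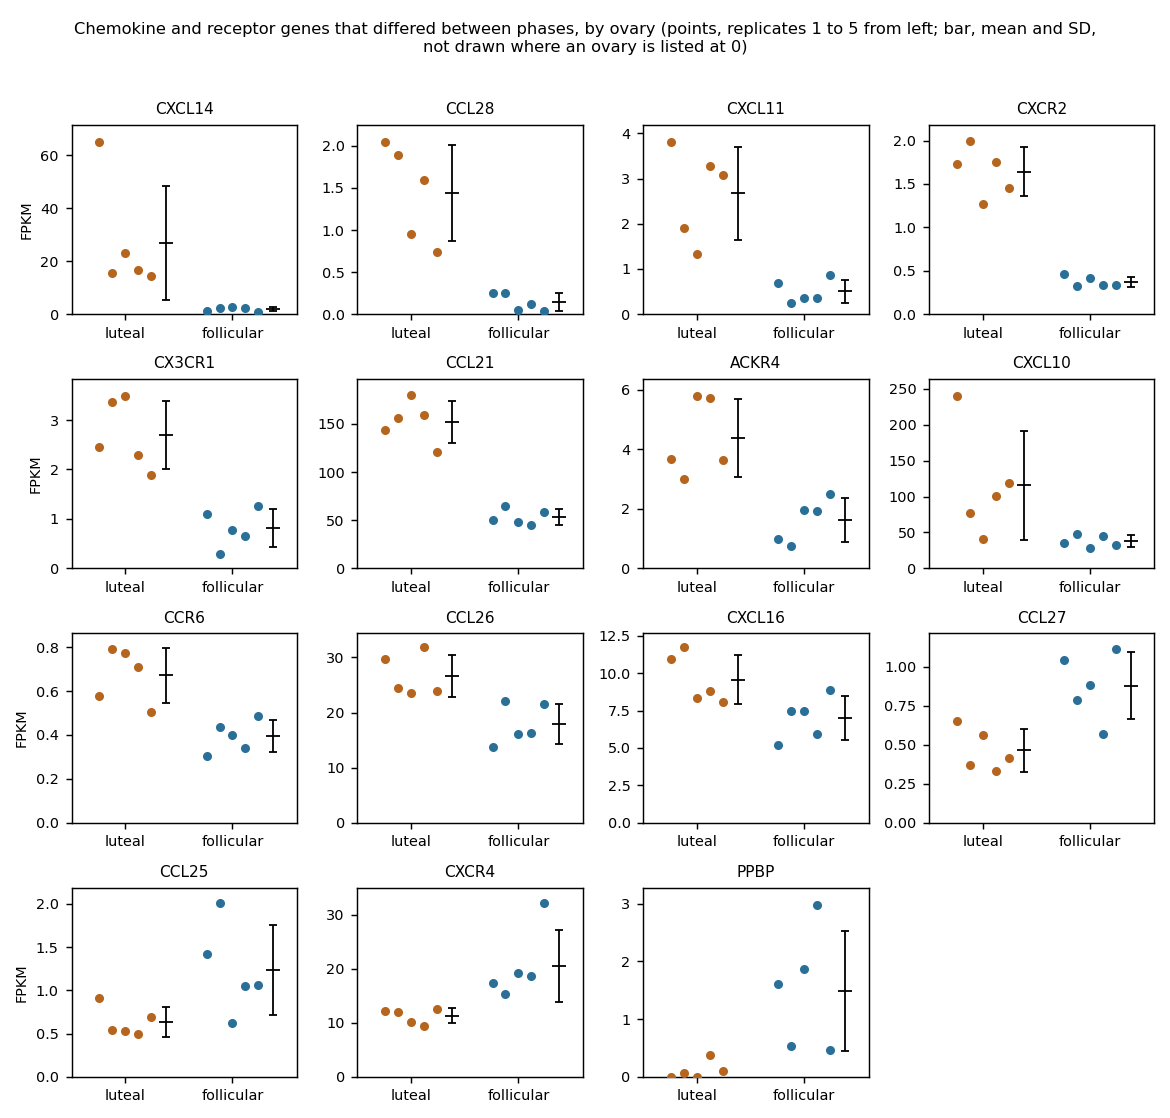
FPKM of 15 called members in each ovary, in order of log2 fold change from CXCL14 to PPBP, with points for replicates 1 to 5 from left to right and a bar for the mean and SD where no ovary is listed at 0. Each vertical axis starts at 0. CCL21 lies at 120 to 180 in luteal phase ovaries against 44.9 to 65.0, whereas the phases overlap for CXCL10, CXCL16, CCL25 and CCL27.

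Of the 11 CXC and CX3C ligands, 10 passed the filter, 4 were called toward the luteal phase (40%) and 1, PPBP, toward the follicular phase (10%), and the median log2 fold change was 0.46. The 50% called stood beside 43.7% of the genes tested (15.9% luteal and 27.8% follicular). CXCL14 (gene 102182694), a chemokine of epithelia and fibroblasts, had the highest log2 fold change of the 38 members tested. Its FPKM was 64.7, 15.6, 23.0, 16.5 and 14.4 in luteal phase replicates 1 to 5 and 1.29, 2.48, 2.59, 2.40 and 0.782 in follicular phase replicates 1 to 5. Every luteal phase ovary was above 14 and every follicular phase ovary below 3, and the log2 fold change was 3.60 (SE 0.43, adjusted p = 9.97e-05), which is 12.2-fold. Luteal phase replicate 1 stood far above the rest, and without it the log2 fold change was 3.22 with an adjusted p of 6.15e-05.

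CXCL9, CXCL10 and CXCL11, ligands of CXCR3 that interferon gamma induces, lie next to each other in the goat genome. CXCL10 (gene 100860873) was at 240, 77.7, 40.4, 101 and 119 in the luteal phase and at 35.7, 47.5, 27.8, 44.6 and 32.2 in the follicular phase. Luteal phase replicate 3 fell within the follicular phase range and the other 4 lay above it, with a log2 fold change of 1.41 (SE 0.37, adjusted p = 0.0105). CXCL11 (gene 102187309), which was much lower, had an FPKM of 3.81, 1.90, 1.33, 3.28 and 3.07 against 0.684, 0.256, 0.349, 0.351 and 0.874, without overlap, and a log2 fold change of 2.22 (SE 0.34, adjusted p = 0.000472). CXCL9 was at 38.9, 21.3, 8.52, 34.7 and 27.6 in the luteal phase and at 24.7, 5.11, 14.3, 13.5 and 16.5 in the follicular phase. Its difference of 0.81 (SE 0.45, adjusted p = 0.166) did not exceed the spread between ovaries, but was called without luteal phase replicate 3 (1.17, adjusted p = 0.0287). It was not called in the other 9 fits without 1 ovary, where the log2 fold change fell to as little as 0.47 and the adjusted p reached 0.344. Luteal phase replicate 3 had the lowest level of CXCL9, CXCL10 and CXCL11 among the luteal phase ovaries. IFNG, the gene of interferon gamma, was at 0.222 to 1.43 and 0.358 to 1.73 (log2 fold change 0.04, SE 0.50, adjusted p = 0.952).

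CXCL16 (gene 102178301), the membrane-bound ligand of CXCR6, was at 11.0, 11.7, 8.33, 8.79 and 8.07 in the luteal phase and at 5.18, 7.48, 7.50, 5.94 and 8.90 in the follicular phase. The phases overlapped, and the log2 fold change of 0.46 (SE 0.16, adjusted p = 0.0366) was the smallest of the 16 called. It lost the threshold in 5 of the 10 fits without 1 ovary, those without luteal phase replicate 1, 2 or 4 or follicular phase replicate 1 or 4, with an adjusted p of up to 0.0846, and without both luteal phase replicates 1 and 2 it was 0.28 (adjusted p = 0.204). PPBP (gene 102178717), the platelet basic protein whose processed forms draw neutrophils through CXCR2, was the CXC ligand higher in the follicular phase. It was listed at 0, 0.0692, 0, 0.371 and 0.0979 in luteal phase replicates 1 to 5 and at 1.61, 0.535, 1.87, 2.97 and 0.470 in follicular phase replicates 1 to 5. The ranges were apart, with a log2 fold change of -2.91 (SE 0.54, adjusted p = 0.00156), and a listed 0 does not show that the gene was silent. Of the other platelet markers, GP9 stayed under 0.1 in the 10 ovaries, and ITGA2B and GP1BA were not called.

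CXCL8, the interleukin that recruits neutrophils through CXCR1 and CXCR2, had an FPKM of 6.27, 6.26, 0.853, 1.14 and 0.943 in the luteal phase and of 2.06, 9.53, 6.11, 8.90 and 8.72 in the follicular phase. Luteal phase replicates 1 and 2 stood with the follicular phase ovaries and replicates 3 to 5 below them, and the log2 fold change of -1.54 (SE 0.63) had an adjusted p of 0.0684. CXCL8 was called without luteal phase replicate 1 (-1.92, adjusted p = 0.0272), luteal phase replicate 2 (-1.92, adjusted p = 0.0282) or follicular phase replicate 1 (-1.93, adjusted p = 0.0293). In the other 7 fits without 1 ovary it was not called, with log2 fold changes as weak as -1.24 and an adjusted p of up to 0.151. Without both luteal phase replicates 1 and 2, an alternative chosen after the values were seen, it was -2.57 (adjusted p = 0.00232). Neutrophil markers were measured beside CXCL8 and PPBP. Of 7 listed, 5 were in the table and 3 were tested. All 3 (S100A8, S100A9 and ELANE) were called lower in the luteal phase, where 27.8% of the genes tested were. The summed FPKM over those 5 was 6.19 to 16.7 in luteal phase ovaries against 18.1 to 56.2. The defining marker MPO stayed under 0.1 in the 10 ovaries, and the neutrophil receptor CSF3R ran from 0.0290 to 0.207. The part of neutrophils in the levels of CXCL8 and PPBP was not tested.

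CXCL13, a ligand of CXCR5 that attracts B cells, had the largest standard error of the 38 members tested. It was at 0.535, 0.0420, 9.32, 12.2 and 0.571 in follicular phase replicates 1 to 5 and at 3.45, 3.18, 2.36, 1.14 and 0.881 in luteal phase replicates 1 to 5. The SE of 1.09 exceeded the log2 fold change of 0.46 (adjusted p = 0.750). Follicular phase replicates 3 and 4, which were high for CXCL13, were the same ovaries that were high for CCL24, and MARCO, a scavenger receptor of macrophages, was at 2.16 and 3.59 in these 2 ovaries and at 0.103 to 0.475 in the other 8. Without both of them CXCL13 was higher in the luteal phase by 2.37 (adjusted p = 0.0166), an alternative chosen after the values were seen. The summed FPKM of the 9 macrophage markers in the table did not set these ovaries apart, at 162 and 159 against 105 to 189 over the follicular phase. CX3CL1, the ligand of CX3CR1 that is anchored in endothelial membranes, was at 0.401 to 0.942 and 0.385 to 0.719 (log2 fold change 0.14, SE 0.24, adjusted p = 0.647).

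**Figure D4:**
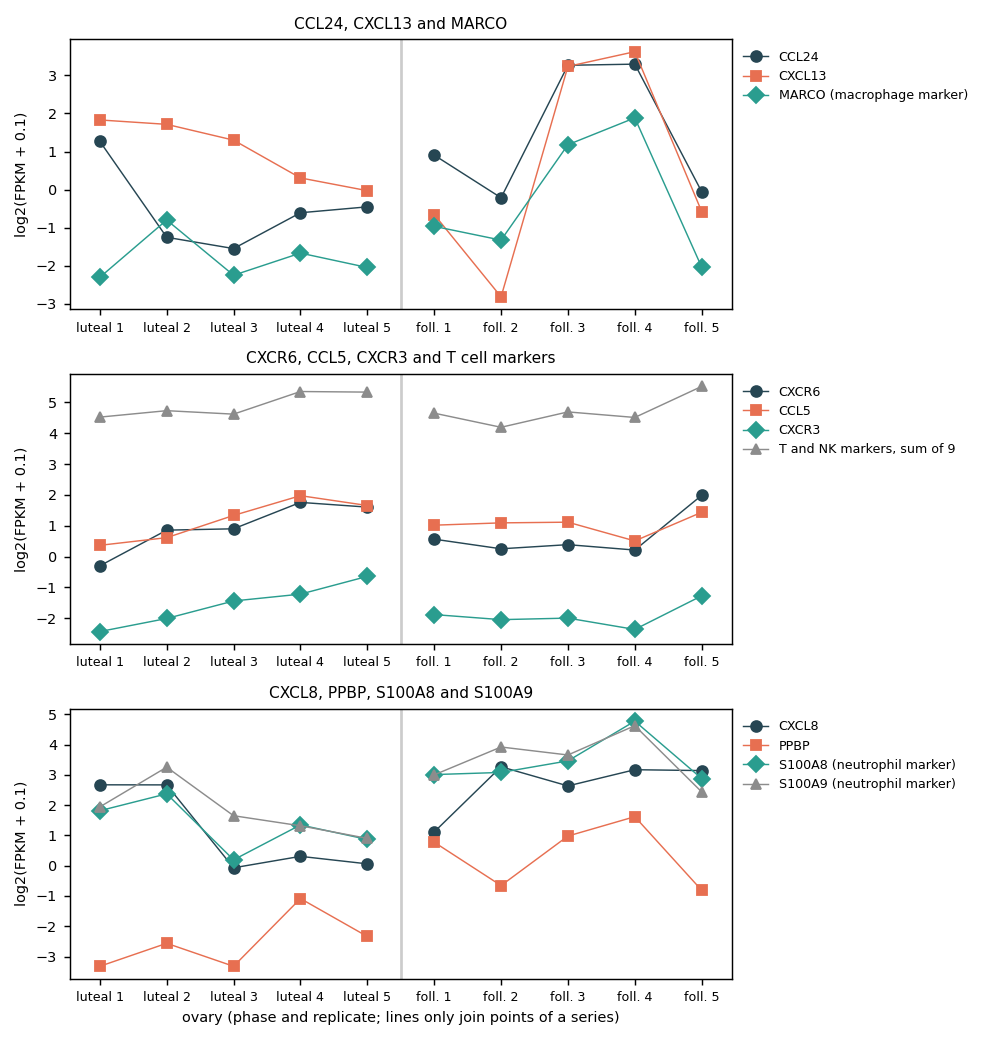
Levels on the log2(FPKM + 0.1) scale in each ovary, luteal phase replicates on the left and follicular phase replicates on the right, with lines that only join the points of a series. The upper panel shows CCL24 and CXCL13 with MARCO, which are high together in follicular phase replicates 3 and 4. The middle panel shows CXCR6, CCL5 and CXCR3 with the summed T and natural killer cell markers, and the lower panel CXCL8 and PPBP with the neutrophil markers S100A8 and S100A9.

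Of the 16 receptors, 14 passed the filter, 4 were called toward the luteal phase (28.6%) and 1, CXCR4, toward the follicular phase (7.14%), with a median log2 fold change of -0.05. The 35.7% called was below the 43.7% of the genes tested (15.9% luteal and 27.8% follicular). Summed over the receptors, FPKM was 31.1 to 44.9 in luteal phase ovaries against 36.4 to 66.2, which overlap. CXCR2 (gene 102188811), the neutrophil receptor of CXCL8 and PPBP, was at 1.73, 1.99, 1.26, 1.76 and 1.46 in luteal phase replicates 1 to 5 and at 0.459, 0.329, 0.412, 0.340 and 0.333 in follicular phase replicates 1 to 5. Its lowest luteal phase value was more than 2 times its highest follicular phase value, and the log2 fold change was 1.87 (SE 0.16, adjusted p = 9.99e-06). Thus CXCR2 rose in the phase in which its ligand PPBP and the neutrophil markers S100A8, S100A9 and ELANE fell. Both of its transcripts were called when transcripts were tested singly over the whole table, where 17.3% of transcripts were called, with log2 fold changes of 2.21 (adjusted p = 0.0185) and 1.71 (adjusted p = 0.0214). They divide the same gene sum, each with a share of 0% to 100% in follicular phase ovaries, so they are not independent of the gene result. CXCR1, the adjacent gene and the other receptor of CXCL8, was listed at 0 to 0.245 in the luteal phase and at 0.103 to 0.197 in the follicular phase (log2 fold change -0.21, SE 0.30, adjusted p = 0.600).

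CX3CR1 (gene 102187274), found on monocytes, tissue macrophages and cytotoxic lymphocytes, was at 2.45, 3.36, 3.48, 2.29 and 1.90 in the luteal phase and at 1.11, 0.294, 0.784, 0.661 and 1.25 in the follicular phase. The phases did not overlap, and the log2 fold change was 1.69 (SE 0.31, adjusted p = 0.00149), while its ligand CX3CL1 was not called. CCR6 (gene 102187225), the receptor of CCL20, was low but apart in the phases, at 0.578, 0.793, 0.775, 0.712 and 0.506 against 0.305, 0.435, 0.401, 0.341 and 0.487 (log2 fold change 0.64, SE 0.18, adjusted p = 0.0133). Without both follicular phase replicates 3 and 4 its adjusted p was 0.0647.

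Macrophage markers were measured beside CX3CR1. Of 9 tested, 5 were called higher in the luteal phase, C1QA, C1QB, C1QC, MRC1 and CSF1R, where 15.9% of the genes tested were. The summed FPKM over the list was 272 to 367 against 105 to 189, while CD14, CD68, AIF1 and MARCO (log2 fold change -1.56) were not called. Markers listed for leukocytes in general, not each of them carried by every kind, moved less. Of 8 of these, TYROBP alone was called higher in the luteal phase, and PTPRC, which encodes CD45, was not called. The summed FPKM was 124 to 156 against 88.4 to 190. The part of macrophage content in the level of CX3CR1 was not tested.

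CXCR4 (gene 102169916), the receptor of CXCL12 that holds progenitor cells and leukocytes in their niches, was the receptor higher in the follicular phase. It was at 12.1, 12.03, 10.2, 9.43 and 12.5 in luteal phase replicates 1 to 5 and at 17.3, 15.3, 19.2, 18.6 and 32.2 in follicular phase replicates 1 to 5. Every follicular phase ovary exceeded every luteal phase ovary, with a log2 fold change of -0.82 (SE 0.18, adjusted p = 0.00351), and without follicular phase replicate 5, the highest, it was -0.64 with an adjusted p of 0.00145. Of 9 endothelial markers, 8 were called higher in the luteal phase, where 15.9% of the genes tested were. The summed FPKM of the 9 was 269 to 345 against 154 to 186, and the part of endothelial content in the level of CXCR4 was not tested.

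CXCL12, a ligand of stromal cells, had summed levels of 42.4, 26.8, 67.6, 44.4 and 46.9 in the luteal phase and of 53.4, 39.9, 46.9, 43.0 and 50.3 in the follicular phase. The sum did not differ beyond the spread between ovaries (log2 fold change -0.09, SE 0.19, adjusted p = 0.736). Its 3 transcripts did not move as 1. XM_018042300.1 carried 77.5% to 83.5% of the sum in luteal phase ovaries against 81.2% to 86.2% and was not called (log2 fold change -0.15, adjusted p = 0.656). XM_018042298.1 was at 2.87, 3.12, 5.93, 7.04 and 9.19 in luteal phase replicates 1 to 5 and at 2.01, 1.06, 1.22, 1.00 and 1.42 in follicular phase replicates 1 to 5. It was higher in every luteal phase ovary, by a log2 fold change of 1.89 (SE 0.34, adjusted p = 0.00414 over the 32842 transcripts tested), and its share of the CXCL12 sum was 6.78% to 19.6% against 2.33% to 3.76%. XM_018042299.1 went the other way, at 1.35 to 6.71 against 4.76 to 7.59, but did not pass the threshold (log2 fold change -1.05, adjusted p = 0.0852). FPKM of transcripts that share exons are estimates of how their fragments divide.

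ACKR3, the atypical receptor that removes CXCL12, was at 18.4, 20.9, 12.7, 11.3 and 11.6 in the luteal phase and at 6.02, 16.4, 8.61, 8.14 and 8.76 in the follicular phase. Follicular phase replicate 2 lay inside the luteal phase range, and the log2 fold change of 0.67 (SE 0.25) had an adjusted p of 0.0508. ACKR3 was called without follicular phase replicate 2 (0.88, adjusted p = 0.00537), without luteal phase replicate 4 (0.76, adjusted p = 0.0494), with ovaries shifted to a common median (0.76, adjusted p = 0.0437), with quantile normalized values (0.73, adjusted p = 0.0435) on the TPM scale (0.77, adjusted p = 0.0234) and with the filter raised to 0.5 FPKM (0.67, adjusted p = 0.0493). In the other 8 fits without 1 ovary it was not called, with an adjusted p of up to 0.118. The ratio of the FPKM of ACKR3 to that of CXCR4, chosen after both were seen and so given without a test, was 1.52, 1.74, 1.25, 1.20 and 0.922 in luteal phase replicates 1 to 5. In follicular phase replicates 1 to 5 it was 0.348, 1.08, 0.449, 0.438 and 0.272, so that replicate 2 alone stood among the luteal phase values.

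**Figure D5:**
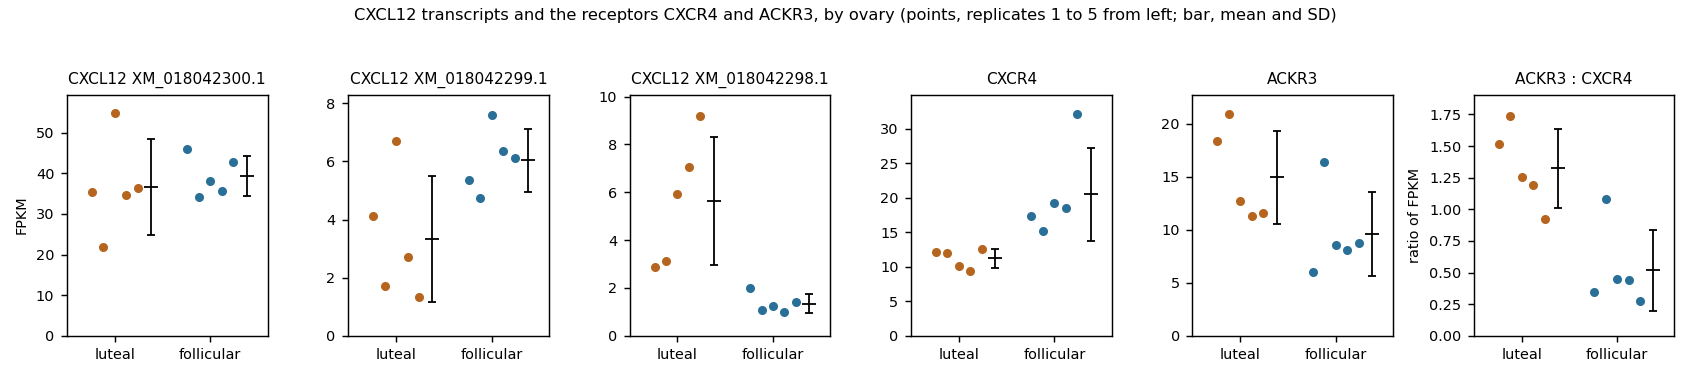
FPKM in each ovary of the 3 CXCL12 transcripts and of the receptors CXCR4 and ACKR3, and the ratio of ACKR3 to CXCR4 in the last panel, with points for replicates 1 to 5 from left to right and a bar for the mean and SD. XM_018042298.1 lies at 2.87 to 9.19 in the luteal phase and at 1.00 to 2.01 in the follicular phase, while the most abundant transcript, XM_018042300.1, overlaps between the phases.

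ACKR4 (gene 102173693), which removes CCL19, CCL21 and CCL25, rose in the luteal phase as CCL21 did. Its FPKM was 3.66, 2.98, 5.80, 5.73 and 3.65 in the luteal phase and 0.985, 0.765, 1.95, 1.91 and 2.50 in the follicular phase. The ranges did not overlap, and the log2 fold change was 1.44 (SE 0.31, adjusted p = 0.00356). CCR7, the signalling receptor of CCL21, was low and pointed the other way without passing the threshold, at 0.161, 0.244, 0.134, 0.0394 and 0.0819 against 0.385, 0.326, 0.0778, 0.268 and 0.392 (log2 fold change -0.73, SE 0.33, adjusted p = 0.0939). It was called without follicular phase replicate 3 (-0.99, adjusted p = 0.0179), and not in the other 9 fits without 1 ovary (adjusted p of up to 0.208). ACKR1, the Duffy receptor of venules and red cells, was at 1.76 and 1.01 in luteal phase replicates 1 and 2 and at 1.25 in follicular phase replicate 2, against 0.0346 to 0.330 in the other 7 ovaries, and no difference between the phases was called (log2 fold change 0.01, SE 0.76, adjusted p = 0.988).

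A further group of receptors passed the filter without being called. CCR3, the eosinophil receptor of CCL24 and CCL26, was at 21.3, 17.03, 13.8, 5.66 and 8.52 in the luteal phase and at 10.4, 20.8, 12.5, 12.3 and 18.5 in the follicular phase (log2 fold change -0.27, SE 0.33, adjusted p = 0.537). Luteal phase replicates 4 and 5 had the lowest levels of CCR3, as they had of CCL16. CXCR6 was at 0.712, 1.71, 1.77, 3.28 and 2.94 against 1.38, 1.09, 1.21, 1.06 and 3.86 (log2 fold change 0.28, SE 0.42, adjusted p = 0.610). Luteal phase replicates 4 and 5 and follicular phase replicate 5, the 3 ovaries highest for CXCR6, were also the 3 highest for CXCR3 and CCL5. CXCR3 was at 0.330, 0.541 and 0.314 in them and at 0.0855 to 0.269 in the other 7 (log2 fold change between the phases 0.36, SE 0.33, adjusted p = 0.398). The summed FPKM of the 9 T and natural killer cell markers in the table was 40.7, 40.2 and 45.7 in the same 3 ovaries and 18.2 to 26.4 in the other 7. Of these markers, CD8A was called higher in the luteal phase, where 15.9% of the genes tested were, and the other 8 were not called. CCR8 was at 0.373 to 1.15 and 0.466 to 1.73, CCR4 at 0.201 to 0.461 and 0.201 to 0.744, XCR1 at 0.175 to 0.393 and 0.215 to 0.335, and CCR10 at 0.0973 to 0.248 and 0.104 to 0.215, with log2 fold changes of -0.06, -0.13, -0.04 and -0.13 and adjusted p from 0.663 to 0.905.

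The 5 members below the filter were CCL20, CCL22, CCR9, CXCR5 and CXCL17. CCL20, the ligand of CCR6, was listed at 0 to 0.150 over the 10 ovaries, CCL22, a ligand of CCR4, at 0 to 0.240, and CCR9 at 0 to 0.163. CXCR5, the receptor of CXCL13, was listed at 0 to 0.0320, and CXCL17 at 0 to 0.0248.

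Positions in the goat genome were used for order alone, from the RefSeq assembly ARS1.2, which may not be the build of the table. All 43 members were matched by gene identifier, and 24 of them had another member within 5 coding genes. Neighbours did not share a direction throughout. In the row of CCL27, CCL19 and CCL21, CCL27 was lower in the luteal phase (-0.80) and CCL21 higher (1.50), and both were called. Adjacent CXCR1 and CXCR2 had log2 fold changes of -0.21 and 1.87, CCL26 and CCL24 of 0.58 and -1.96, and CXCL9, CXCL10 and CXCL11 of 0.81, 1.41 and 2.22.

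Genes that carry, induce or modify chemokine signals were counted in lists drawn from textbook knowledge. Of 48 signalling genes tested, 12 were called toward the luteal phase and 7 toward the follicular phase, with a median log2 fold change of 0.18. These 19 are 39.6% of the list, near the 43.7% of the genes tested, and divide into 25.0% and 14.6% where the background was 15.9% and 27.8%. After a shift to a common median these counts were 17 and 4, after quantile normalization 17 and 7, and on the TPM scale 15 and 4. The background for the shift and the TPM scale is given above for the members, and after quantile normalization it was 17.5% and 24.4% of the genes tested. TIAM1, an exchange factor that activates Rac, was at 13.5 ± 3.51 in luteal phase ovaries against 2.29 ± 0.434 (SD, n = 5 each), with a log2 fold change of 2.49 (adjusted p = 2.57e-06). PRKCB, a protein kinase C, changed by 1.54 (adjusted p = 5.61e-05) and ADCY4, an adenylate cyclase, by 1.41 (adjusted p = 3.73e-05). The kinase JAK3 (-1.30, adjusted p = 0.00117), the polarity protein PARD3 (-0.71, adjusted p = 0.000218) and the G protein subunit GNG11 (-0.58, adjusted p = 0.0152) were lower in the luteal phase.

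Of 26 induction genes tested, 8 were called toward the luteal phase and 2 toward the follicular phase, with a median of 0.12. The 10 called are 38.5% of the list, against 43.7% of the genes tested, and on the TPM scale the counts were 8 and 0. IL6, a cytokine of acute inflammation, was at 14.2, 34.6, 6.39, 7.16 and 7.51 in the luteal phase and at 0.207, 3.75, 0.0817, 0.159 and 0.819 in the follicular phase, without overlap (log2 fold change 4.35, SE 0.78, adjusted p = 0.00119). The interleukin 1 receptor IL1R1 (0.91, adjusted p = 0.00260) and the pattern receptor TLR2 (0.78, adjusted p = 0.000378) rose as well, and NFKBIA, the inhibitor of NF-kB (-0.38, adjusted p = 0.0336), and the NF-kB subunit RELA (-0.31, adjusted p = 0.0175) fell. Without luteal phase replicate 1 the counts were 5 and 4, and without luteal phase replicate 2 they were 5 and 1. TNF and IL1B were not called, with log2 fold changes of 0.23 (adjusted p = 0.583) and -0.52 (adjusted p = 0.108).

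Of 17 modifier genes tested, 7 were called toward the luteal phase and 6 toward the follicular phase, with a median of 0.04. The 13 called are 76.5% of the list, against 43.7% of the genes tested, with 41.2% toward the luteal phase (background 15.9%) and 35.3% toward the follicular phase (background 27.8%). CMKLR1, the receptor of chemerin, was at 9.39, 10.2, 6.50, 8.07 and 8.28 against 2.91, 2.36, 1.48, 2.23 and 3.60 (log2 fold change 1.76, adjusted p = 9.36e-05). CCRL2, which binds chemerin without signalling, changed by 1.12 (adjusted p = 0.00334) and SDC4, a heparan sulfate proteoglycan that can hold chemokines at the cell surface, by 0.71 (adjusted p = 0.00603). MMP9, a gelatinase that trims chemokines, fell in the luteal phase, at 2.17 ± 1.22 against 10.5 ± 3.51 (SD, n = 5 each; log2 fold change -2.28, adjusted p = 0.000329). MIF, a cytokine that also binds CXCR2 and CXCR4 (-0.67, adjusted p = 0.00168), and MMP2 (-0.56, adjusted p = 0.00228) were lower too. DPP4, the peptidase that inactivates CXCL10 and CXCL12, was at 6.65 to 8.01 and 5.63 to 13.8 and was not called (log2 fold change -0.36, adjusted p = 0.194).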

How the data were processed

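The authors depleted ribosomal RNA, prepared strand-specific libraries, 1 per ovary, used HISAT2 for alignment and StringTie for assembly, and deposited FPKM per transcript and ovary, as Cuffdiff gives them. The genome build is not given in the sources used here, and no ovaries were pooled. FPKM of protein-coding transcripts were summed per symbol and tested as log2(FPKM + 0.1) with limma 3.58.1 (lmFit, eBayes with trend) in R 4.3.3. The replicate number was not a term of the model. Other steps used Python 3.11.15 with pandas 2.3.3 and matplotlib 3.10.9. The script was tested on simulated data.

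The members, gene lists and tests were chosen with earlier results of these data known. Some genes, 1 member among them, are counted in the totals but not reported here. The other members are described. Of the signalling, induction and modifier lists, at most 3 called genes per direction, with the largest change, are named. Further genes (IFNG, TNF, IL1B, DPP4 and the cell type markers named beyond that rule) were chosen after their values were seen. CYP11A1 and CYP17A1 were matched to LOC102173131 and LOC102182663 through RefSeq synonyms. Listed genes without a row in the table were not analysed here. Results were refitted with a replicate block, on the TPM scale, with ovaries shifted to a common median or quantile normalized, with no trend in eBayes, on single transcripts (members only), without each ovary in turn, with pseudocounts of 0.01 or 1, and with the filter dropped or raised to 0.5 FPKM. Sequences of the members were not used here. Marker lists of other cell types are described beside the results they touch and, for the rest, in the closing observations.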

Additional observations from a re-analysis of the deposited data

Results flagged for a closer look

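In groups of 5 ovaries, the highest or lowest FPKM of a member was marked where its gap to the nearest other ovary was too large a share of the whole range by Dixon's criterion. The 38 members gave 76 groups and 9 marked values. Chance marks about 1 in 20 groups when values are normally distributed and groups independent. FPKM were used without logs and members share the same ovaries, so the 9 cannot be weighed against that rate. Of the 9 marked values, 3 lay in follicular phase replicate 5, which had the highest summed T and natural killer cell markers (45.7). It also had the highest summed general leukocyte markers, at 190 against 88.4 to 156 in the other ovaries. Among follicular phase ovaries, its macrophage (189) and dendritic cell (9.71) sums were the highest. Its neutrophil (18.1) and B and plasma cell (18.9) sums were the lowest there. In follicular phase replicate 5, CXCR4 was at 32.2 against 15.3 to 19.2 in the other follicular phase ovaries, CXCR6 at 3.86 against 1.06 to 1.38, and CCR8 at 1.73 against 0.466 to 0.769.

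Follicular phase replicate 2 was marked for ACKR3, at 16.4 against 6.02 to 8.76, and for ACKR1, at 1.25 against 0.145 to 0.330. Follicular phase replicate 4 was marked for a low CCL16, at 1.45 against 2.28 to 2.49. Luteal phase replicate 1 was marked for CXCL14, at 64.7 against 14.4 to 23.0, and for CCL24, at 2.31 against 0.242 to 0.631. Luteal phase replicate 4 was marked for PPBP, at 0.371 against 0 to 0.0979.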

How the results depend on the processing

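Of the 16 called members, 10 kept their call in every alternative that could test them and none changed sign. The other 6 lost it in at least 1, among them CCL25, CXCL16, CCL26, CCR6 and CCL27, the last only with transcripts tested singly. PPBP could not be tested with a minimum FPKM of 0.5. Equal replicate numbers were not taken to pair the ovaries, since the labels give them no shared origin and deviations from the phase means correlated with r of 0.026, 0.199, 0.192, 0.088 and 0.036. Ovaries 2 and 4 of each phase correlated best with their own number. With the replicate block, luteal phase calls numbered 13 and follicular phase calls 4, CXCL16 lost its call (adjusted p = 0.0617), and ACKR3 (adjusted p = 0.0225) and CCL1 (adjusted p = 0.0200) gained one. Leaving out each ovary in turn gave 10 to 13 and 3 to 6 members, 10 to 16 and 5 to 7 signalling genes, 5 to 9 and 1 to 4 induction genes and 7 to 8 and 5 to 6 modifier genes. Signalling genes higher in the follicular phase numbered 4 after a shift to a common median, 4 on the TPM scale and 3 without both follicular phase replicates 3 and 4. Induction genes higher in the follicular phase numbered 1, 0 and 1 under the same settings. Of the 22 uncalled members, 10 gained a call in at least 1 alternative and 9 changed sign in at least 1, always without a call. Log2 fold changes of opposite sign were, on the TPM scale, -0.019 (ACKR1), 0.033 (CCR8), 0.011 (CXCL12) and 0.03 (XCR1). After a shift to a common median they were 0.028 (CCR8) and 0.041 (XCR1), and after quantile normalization 0.047 (CCR10), 0.033 (CCR4), 0.031 (CCR8) and 0.13 (XCR1). ACKR1 was at -0.277 with a pseudocount of 0.01 and CXCL13 at -0.089 with a pseudocount of 1. Without both follicular phase replicates 3 and 4 ACKR1 was at -0.36 and CCR10 at 0.043. Without both luteal phase replicates 1 and 2 ACKR1 was at -1.20, CCR8 at 0.21, CXCL12 at 0.16 and CXCL13 at -0.036. Without 1 ovary, ACKR1 ran from -0.53 to 0.45, CCL5 from -0.042 to 0.36, CCR4 from -0.27 to 0.10, CCR8 from -0.22 to 0.23, CXCL12 from -0.24 to 0.089, CXCL13 from -0.38 to 1.23, CXCR1 from -0.41 to 0.041 and XCR1 from -0.15 to 0.058. The causes were not tested. Among all genes tested, 36.3% of calls were higher in the luteal phase, 48.8% after a shift to a common median and 52.5% on the TPM scale. Without read counts, the counting error of members with an FPKM under 1 is unknown.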

Other observations

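Markers of other cell types of the ovary were also measured. The background for these counts is 15.9% of the genes tested called higher in the luteal phase and 27.8% called lower. Of 8 granulosa cell markers, 4 were called lower in the luteal phase (FSHR, AMH, FOXL2 and HSD17B1) and 4 were not called, and the summed FPKM overlapped at 170 to 743 against 286 to 1270. Of 8 oocyte markers, 5 were called lower and 3 were not called, with sums of 7.52 to 16.1 against 14.8 to 41.7. Theca cell markers split, with CYP17A1 and INSL3 lower and LHCGR higher in the luteal phase. Of 7 smooth muscle and pericyte markers, 5 were lower in the luteal phase, MYH11 and CNN1 among them, while RGS5 and PDGFRB were higher. Of 7 stroma markers tested, 3 were higher and 1 lower. Of 6 dendritic cell markers, BATF3 was higher (log2 fold change 1.88, adjusted p = 0.000371) and the others were not called, and B and plasma cell markers summed to 17.9 to 62.9 against 18.9 to 32.9. Of 4 ovarian surface epithelium markers tested, 1 was higher (MSLN) and 1 lower (KRT19). The blood marker in the table, ALAS2, stayed under 0.1.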
